A study of Mus musculus with 24 samples.

Results

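The 8 genes described here are the mouse receptors, kinases and transcription factor of the interleukin-6 family pathway together with its feedback inhibitor, namely Osmr, Lifr, Il6ra, Il6st, Jak1, Jak2, Stat3 and Socs3. They were chosen by symbol, as rows present in each of the 4 deposited expression tables. Of 14769 genes in any table, 14014 were in all 4 tables, and these 8 were among them. The rule itself uses no measured value, though the filter that decided which genes each table lists may. The genes were chosen with earlier results of these data known.

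The 24 libraries hold ribosome-depleted RNA of the cortex, 6 in each of 4 groups, from 3 to 4 month old male mice that had all undergone transient middle cerebral artery occlusion, a stroke model in which a filament blocks the artery for 1 hour and is then withdrawn, here followed by 1 day of reperfusion. The groups are CL WT and PI WT, from wild-type animals, and CL KO and PI KO, from animals without the circular RNA ciRS-7 (Cdr1as). The labels give the strain C57BL/6N-Cdr1asem1Nikr for every library, wild-type ones included, and name the same animal for 1 CL and 1 PI library, while KO and WT animals differ. CL and PI are used as labelled, since the labels do not spell them out, and no unoperated group is analysed here. The comparisons ask what differs between PI and CL cortex after the occlusion, and whether the loss of ciRS-7 alters it. In the tables that compare genotypes, Cdr1as lay between 2594 and 3809 CPM (reads scaled to the same total in each library) in the recovered WT values and at no more than 0.169 CPM in the recovered KO values.

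The receptor gp130, encoded by Il6st, is the shared signalling chain for interleukin-6, leukaemia inhibitory factor, oncostatin M, ciliary neurotrophic factor and related cytokines. They bind gp130 together with further chains, such as Il6ra, Lifr or Osmr, some of which several cytokines share. The kinases Jak1 and Jak2 bound to these receptors then phosphorylate STAT3, which enters the nucleus and activates genes that include Socs3, whose product blocks the receptor complex and its kinases. In injured brain this pathway is known for its part in the reactive response of astrocytes. RNA levels do not show phosphorylation, so the activity of STAT3 itself was not measured.

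STAT proteins commonly bind DNA at the palindrome TTCNNNGAA, which reads the same on both strands. The promoters below belong to the 4 of the 8 genes whose RNA rose, and to Gfap and Icam1, 2 known STAT3 target genes whose RNA also rose, so that promoters with and without these letters can be compared. Each runs 5′ to 3′ on the gene's own strand over the 250 bases before the RefSeq start (build GRCm38.p6), 257 bases for Gfap, in which the match runs over the start. Capitals mark a match to TTCNNNGAA.
Osmr: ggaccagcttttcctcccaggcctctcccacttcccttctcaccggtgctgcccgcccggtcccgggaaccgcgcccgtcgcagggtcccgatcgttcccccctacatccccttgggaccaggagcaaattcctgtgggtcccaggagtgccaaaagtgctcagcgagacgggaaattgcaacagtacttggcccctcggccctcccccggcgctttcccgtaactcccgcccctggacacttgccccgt
Il6st: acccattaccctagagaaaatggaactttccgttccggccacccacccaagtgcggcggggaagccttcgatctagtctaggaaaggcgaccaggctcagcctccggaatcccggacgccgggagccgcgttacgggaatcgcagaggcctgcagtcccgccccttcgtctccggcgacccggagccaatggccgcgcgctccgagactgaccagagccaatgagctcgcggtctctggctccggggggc
Stat3: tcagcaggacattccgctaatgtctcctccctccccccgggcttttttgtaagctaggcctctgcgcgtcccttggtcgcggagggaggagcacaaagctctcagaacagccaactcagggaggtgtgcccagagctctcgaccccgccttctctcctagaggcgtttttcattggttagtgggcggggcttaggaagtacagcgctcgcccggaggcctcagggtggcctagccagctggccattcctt
Socs3: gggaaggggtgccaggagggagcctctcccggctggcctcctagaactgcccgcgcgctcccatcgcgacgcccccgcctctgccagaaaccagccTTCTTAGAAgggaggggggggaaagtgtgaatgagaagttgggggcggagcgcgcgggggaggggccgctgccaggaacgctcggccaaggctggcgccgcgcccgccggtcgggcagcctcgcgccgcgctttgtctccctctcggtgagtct
Gfap: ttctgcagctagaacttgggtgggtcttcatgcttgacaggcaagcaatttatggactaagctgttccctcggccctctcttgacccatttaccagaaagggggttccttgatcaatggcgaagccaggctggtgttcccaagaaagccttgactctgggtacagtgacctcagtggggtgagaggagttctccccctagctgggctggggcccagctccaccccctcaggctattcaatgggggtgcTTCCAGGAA
Icam1: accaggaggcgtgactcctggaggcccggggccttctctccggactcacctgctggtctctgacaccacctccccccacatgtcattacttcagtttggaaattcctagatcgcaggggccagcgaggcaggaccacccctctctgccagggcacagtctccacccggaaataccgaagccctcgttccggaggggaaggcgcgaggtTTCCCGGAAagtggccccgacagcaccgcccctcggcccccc
These stretches lie at chr15:6874314-6874563 (minus strand), chr13:112463820-112464069 (plus), chr11:100939541-100939790 (minus), chr11:117969367-117969616 (minus), chr11:102897194-102897450 (minus) and chr9:21015690-21015939 (plus). The stretches of Osmr and Socs3 lie inside the longer bounds that GENCODE gives these genes. All 8 genes had a promoter in the RefSeq table, 9 windows in all because Lifr has 2 starts. The search covered 250 bases before to 50 after each start, 300 bases in all. With the start as position 0, the match in Socs3 is TTCTTAGAA at -154 to -146, and Socs3 was the only 1 of the 8 genes with a match in these windows. Gfap has TTCCAGGAA at -2 to 6, and Icam1 has TTCCCGGAA at -42 to -34. Among 24 STAT3 target genes with a promoter in the table, 6 held a match. Of these, Gfap and Icam1 rose, and their stretches are shown because they hold a match, while Bcl6 was not called, and Fga, Fgb and Hamp were not listed in the PI and CL tables. The windows of Serpina3n, Lcn2, Timp1, Mcl1 and Il4ra, further targets whose RNA rose, held no match. A match was present in 8.30% of all 32851 promoters. A match describes letters in the window and is not a measured binding site.

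Values are log2 CPM as deposited. In every gene the authors' tables hold the 2 lowest and the 2 highest values of each group of 6 libraries as ties at the group's quartiles, so the 4 inner values can be recovered and the lowest and highest cannot. Each level below is therefore given as the second lowest, the median and the second highest value of the group. Overlap between groups is judged on the recovered values alone. Differences are between trimmed means (means of the 4 recovered values), tested with a moderated trimmed-mean test and adjusted over all genes of the table, with a call at an adjusted p under 0.05. For PI against CL, this test treats the 2 libraries of an animal as independent, although the labels name the same animal. Counts of calls with these libraries paired are given at the end. The reads counted per library, estimated from the steps between low values, ran from 3.73 M to 10.5 M (median 6.91 M), so that 3 reads correspond to 0.286 to 0.803 CPM. The lowest estimate was that of library 6 of CL KO, from which both 3.73 M and 0.803 CPM come. It is uncertain, since a finer step between its low values, meaning a higher depth, was less clear but possible. All 8 genes passed whatever filter decided which genes each table lists.

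In wild-type animals 4 of the 8 genes rose in PI cortex against CL cortex, namely the receptors Osmr and Il6st, the transcription factor Stat3 and the feedback inhibitor Socs3, and none fell. Of 14489 genes tested, 5.2% were called higher and 5.4% lower. Osmr rose 5.69-fold and Socs3 5.39-fold, both at the 99.7th percentile of all changes, Stat3 2.21-fold (percentile 98.6) and Il6st 1.24-fold (percentile 88.1). In knockout animals the same 4 genes rose, by 6.13-fold, 5.11-fold, 2.27-fold and 1.21-fold. There 5.11% of 14338 genes were called higher and 4.94% lower. In bulk tissue, more cells of a type and more RNA per cell cannot be told apart. The plot of levels by library shows how the groups lie.

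**Figure D1:**
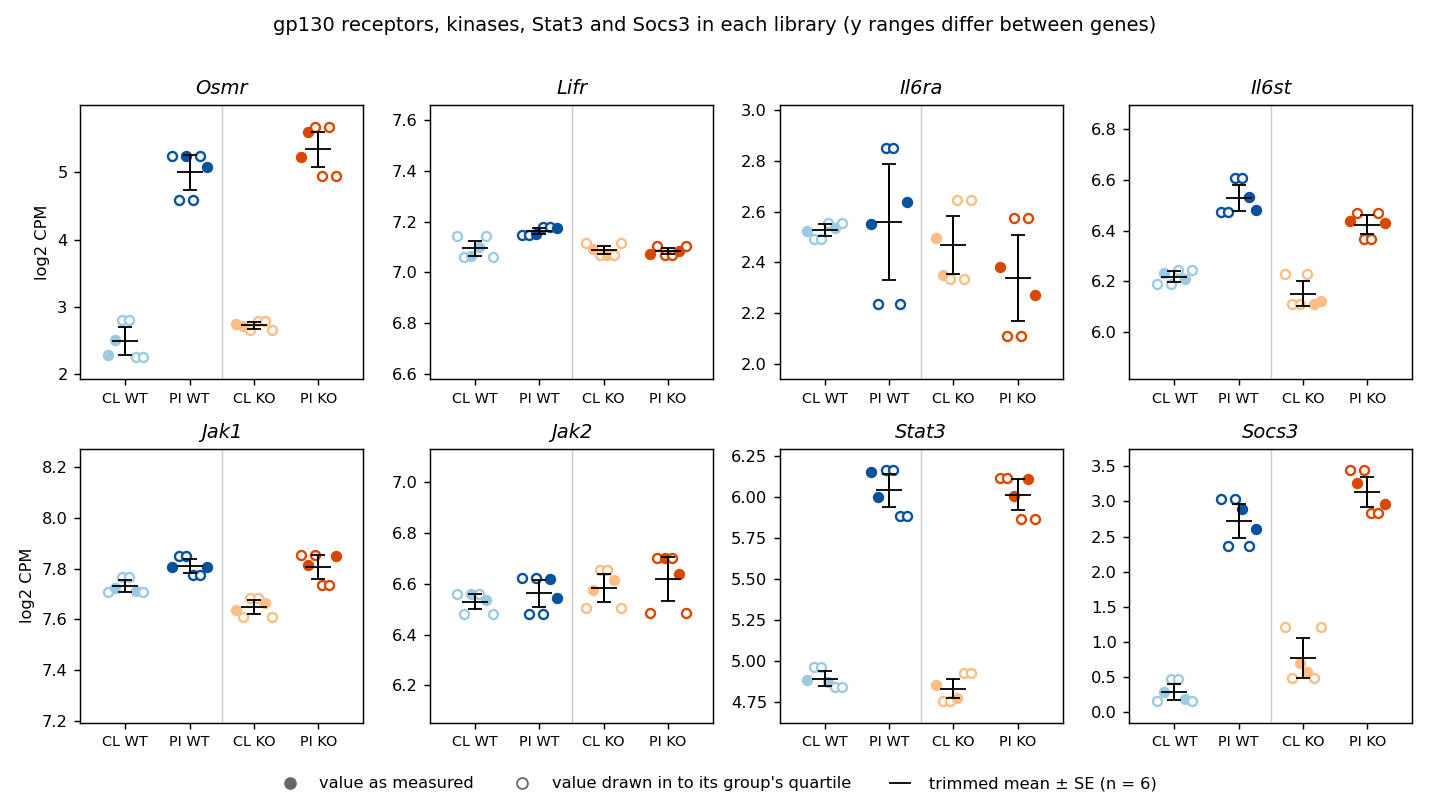
Level of each gene (y axis, log2 CPM) in each of the 6 libraries of the 4 groups, with WT values from one table and KO values from another that was scaled on its own. Filled points are values as measured, open points were drawn in to the group's quartile, and black bars are the trimmed mean ± SE (n = 6); the PI points of Osmr, Il6st, Stat3 and Socs3 lie above all CL points of the same genotype.

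Osmr encodes the chain that joins gp130 in the oncostatin M receptor (ENSMUSG00000022146, chr15:6813577-6874969, minus strand, GRCm38). In PI WT its level was 4.43, 5.15 and 5.25 log2 CPM, and in CL WT 2.24, 2.40 and 2.91 log2 CPM. The groups did not overlap, and libraries 2 and 4 were the lowest of PI WT. The difference was 2.51 ± 0.24 on the log2 scale (SE, n = 6 per group, adjusted p = 6.35e-05). In PI KO the level was 4.84, 5.41 and 5.70, and in CL KO 2.63, 2.73 and 2.81 log2 CPM. Again the groups did not overlap, with libraries 4 and 6 the lowest of PI KO and the CL KO values closely grouped. The difference was 2.62 ± 0.20 (SE, adjusted p = 1.10e-05).

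Il6st encodes gp130 itself (ENSMUSG00000021756, chr13:112464070-112510086, plus strand). Its level in PI WT was 6.47, 6.51 and 6.63 and in CL WT 6.18, 6.22 and 6.25 log2 CPM, so that the rise was small but the groups stood apart. The difference was 0.31 ± 0.06 (SE, adjusted p = 0.00659). In PI KO it was at 6.35, 6.43 and 6.48 and in CL KO at 6.11, 6.12 and 6.26 log2 CPM, a difference of 0.27 ± 0.07 (SE, adjusted p = 0.0272) without overlap. This KO call does not hold when the prior variance is fitted without a trend on level (adjusted p = 0.0816).

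Lifr and Il6ra did not pass the test in either genotype. Lifr, the receptor chain for leukaemia inhibitory factor (ENSMUSG00000054263, chr15:7090614-7197489, plus strand), had 7.15, 7.16 and 7.18 log2 CPM in PI WT and 7.06, 7.08 and 7.16 in CL WT. Its difference of 0.07 had a 95% interval from -0.04 to 0.18 (adjusted p = 0.469). In knockout animals Lifr had 7.07, 7.08 and 7.11 log2 CPM in PI and 7.07, 7.08 and 7.12 in CL, and the interval ran from -0.11 to 0.11. Both intervals end far below the change of Osmr, which lies near it on the same chromosome.

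Il6ra, the chain that binds interleukin-6 (ENSMUSG00000027947, chr3:89864059-89913196, minus strand), was spread more widely in PI than in CL cortex of wild-type animals, with 2.13, 2.60 and 2.92 against 2.48, 2.53 and 2.56 log2 CPM. Its difference was 0.03 with a 95% interval from -0.40 to 0.47 (adjusted p = 0.944). In PI KO it had 2.06, 2.33 and 2.64 and in CL KO 2.33, 2.42 and 2.70 log2 CPM, a difference of -0.13 with an interval from -0.56 to 0.30. These intervals are wider than those of Lifr. Exons of Il6ra overlap those of Gm42809, which no table lists, by 242 bases on the opposite strand.

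Neither kinase passed the test. Jak1 (ENSMUSG00000028530, chr4:101152367-101265282, minus strand) had 7.77, 7.81 and 7.87 log2 CPM in PI WT and 7.71, 7.72 and 7.78 in CL WT, groups that overlapped slightly. The difference was 0.08 with a 95% interval from -0.03 to 0.19 (adjusted p = 0.386). In knockout animals Jak1 had 7.71, 7.83 and 7.86 log2 CPM in PI and 7.60, 7.65 and 7.69 in CL. These recovered values did not overlap, yet the difference of 0.16 ± 0.06 (SE) had an adjusted p of 0.112. Jak2 (ENSMUSG00000024789, chr19:29251828-29313080, plus strand) had 6.46, 6.58 and 6.62 log2 CPM in PI WT and 6.47, 6.55 and 6.56 in CL WT. Its interval was -0.11 to 0.17 in wild-type and -0.16 to 0.22 in knockout animals, where the levels were 6.43, 6.67 and 6.70 in PI and 6.48, 6.60 and 6.67 in CL. Recovered values did not overlap, with PI higher, for 4 of the 8 genes in wild-type animals against 13.2% of all genes, and for 5 of the 8 in knockout animals against 13.4%.

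Stat3 (ENSMUSG00000004040, chr11:100885098-100939540, minus strand) had 5.84, 6.08 and 6.17 log2 CPM in PI WT and 4.83, 4.88 and 4.99 in CL WT. The groups did not overlap, with libraries 5 and 6 the lowest of PI WT. The difference was 1.15 ± 0.09 (SE, adjusted p = 1.95e-05). In PI KO the level was 5.82, 6.06 and 6.12 and in CL KO 4.75, 4.82 and 4.95 log2 CPM, a difference of 1.18 ± 0.10 (SE, adjusted p = 1.99e-05). The 3′ end of Stat3 overlaps the exons of Stat5a on the opposite strand by 72 bases, and whether the counting used strand is not given in the sources used here.

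Socs3 (ENSMUSG00000053113, chr11:117966079-117970047, minus strand) is the gene whose promoter carries the match shown above. Its level was 2.28, 2.75 and 3.09 log2 CPM in PI WT and 0.15, 0.23 and 0.53 in CL WT. CL levels are low, but the second lowest of CL WT, 1.11 CPM, is above the 3-read level of every library. The difference was 2.43 ± 0.26 (SE, adjusted p = 0.000115). In PI KO it was 2.80, 3.11 and 3.50 and in CL KO 0.45, 0.64 and 1.38 log2 CPM, a difference of 2.35 ± 0.29 (SE, adjusted p = 0.000423). Libraries 1 and 6 were the highest of CL KO, and the recovered values of CL KO all lay below those of PI KO.

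**Figure D2:**
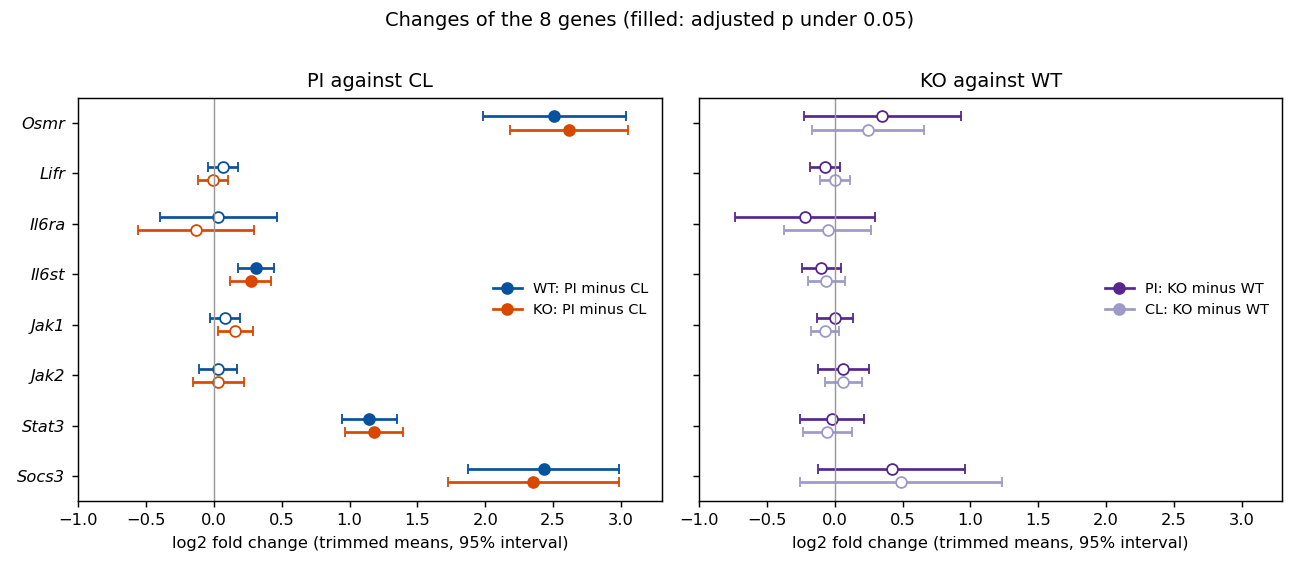
Log2 fold change of each gene (x axis, difference of trimmed means with its 95% interval) for PI against CL in each genotype (left) and for KO against WT within PI and within CL (right). Filled points have an adjusted p under 0.05; the 4 genes that rose do so by similar amounts in both genotypes on the left, and no point on the right is filled.

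Per length of exon the order of the genes differed between PI and CL cortex at its lower end. In each group Jak1 was highest, followed by Jak2, Lifr, Il6st and Stat3, and no neighbours among these 5 overlapped. In CL WT Jak1 stood at 29.4, Il6st at 6.71 and Stat3 at 3.12 CPM per kb of exon. Below them came Il6ra at 0.667, Osmr at 0.463 and Socs3 at 0.422 CPM per kb, of which the last pair overlapped. In PI WT Stat3, at 6.91 CPM per kb, came close to Il6st at 8.32. Osmr at 2.64 and Socs3 at 2.27 CPM per kb overlapped each other and lay above Il6ra at 0.682. In CL KO Il6ra, Socs3 and Osmr (0.640, 0.592 and 0.546 CPM per kb) overlapped their neighbours in the order. In PI KO Il6ra was again last, at 0.585 CPM per kb, below Osmr at 3.35 and Socs3 at 3.03.

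**Figure D3:**
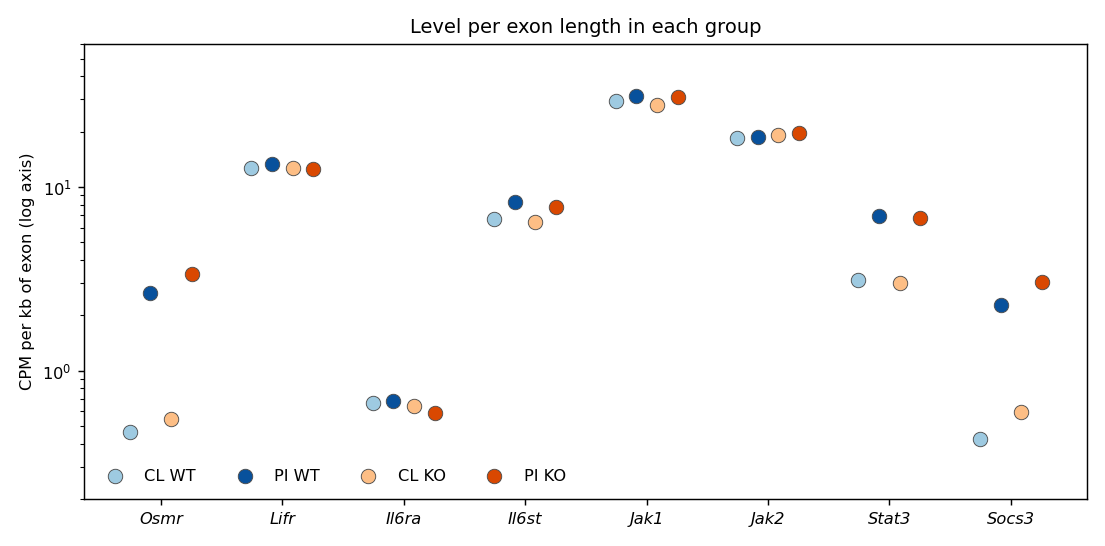
Level per exon length (y axis, CPM per kb of exon, log axis) of each gene in the 4 groups, from trimmed means of the PI and CL tables. Osmr and Socs3 lie below or close to Il6ra in CL cortex and above it in PI cortex, while Jak1 stays highest.

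Neither the genotype comparisons nor the test of the difference between genotypes called any of the 8 genes. Within PI cortex 0 of 8 passed, and 0 had an unadjusted p under 0.05, against 0.0208% and 5.75% of 14452 genes. Within CL cortex it was again 0 and 0 of 8, against 0.0279% and 5.73% of 14323 genes. The interaction, the PI against CL difference of KO minus that of WT, called 0 of 8 genes at an adjusted and at an unadjusted p under 0.05, against 0% and 4.55% of 14211 genes. With limma on the values as deposited, Lifr in PI and Jak1 in CL were called, and none of the 8 genes in the interaction. These comparisons share groups with those of PI and CL. In the table of PI libraries, 2 of 8 neutrophil markers, S100a8 and S100a9, were listed. As deposited, with extremes drawn in, they summed to 3.39 to 9.32 CPM in KO and 2.20 to 4.12 CPM in WT. Their differences were 1.16 (adjusted p = 0.854) and 0.77 (adjusted p = 0.877), and their part in the PI comparison of genotypes was not tested.

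Intervals show what sizes the genotype comparisons leave possible. For Stat3, KO minus WT was -0.02 in PI (95% interval -0.26 to 0.22) and -0.05 in CL (-0.23 to 0.13). For Il6st it was -0.10 in PI (-0.24 to 0.05) and -0.06 in CL (-0.20 to 0.08). Both intervals are narrow beside the PI against CL rise of Stat3, and less so beside that of Il6st. Socs3 was measured less precisely, with 0.42 in PI (-0.12 to 0.96) and 0.49 in CL (-0.25 to 1.23). For Osmr the difference was 0.35 in PI (-0.23 to 0.93) and 0.24 in CL (-0.17 to 0.66). In the table of PI libraries, Socs3 had 2.83, 3.14 and 3.53 log2 CPM in KO and 2.31, 2.77 and 3.12 in WT, and the groups overlapped. Recovered values did not overlap for Lifr in PI, with 7.10, 7.11 and 7.15 in KO and 7.17, 7.19 and 7.21 log2 CPM in WT, where this held for 8.97% of all genes. The same was true of Jak1 in CL, with 7.58, 7.63 and 7.67 in KO and 7.68, 7.69 and 7.74 in WT, where it held for 8.67% of genes. The adjusted p was 0.882 for Lifr and 0.902 for Jak1.

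As for the difference in response, the interaction was 0.03 for Stat3 (95% interval -0.27 to 0.33), -0.08 for Socs3 (-0.92 to 0.77), 0.11 for Osmr (-0.62 to 0.84) and -0.04 for Il6st (-0.23 to 0.15). The intervals of Socs3 and Osmr are the widest of these 4, and differences of any size inside them remain possible with 6 libraries per group.

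Of 42 further genes of the pathway, 30 were listed in the WT table, of which 4 rose and 1 fell, and 28 in the KO table, of which 1 rose and 1 fell. Over all genes 5.2% were called higher and 5.4% lower in WT, and 5.11% and 4.94% in KO, so the KO counts are near the background. Their median difference was 0.03 in WT and 0.09 in KO, beside 0.01 and -0.00068 over all genes. Of 10 ligand genes only Cntf, which encodes ciliary neurotrophic factor, was listed in the WT table (difference 0.38, adjusted p = 0.565), and none in the KO table. Il6, Lif and Osm, the ligands of the receptors above, were among those not listed, so their RNA is not described.

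Among 6 listed receptors outside the set, Lepr, the leptin receptor and a close relative of gp130, rose in WT. It had 3.02, 3.22 and 3.62 log2 CPM in PI WT and 2.47, 2.62 and 2.74 in CL WT, a difference of 0.66 ± 0.17 (SE, adjusted p = 0.0292, and 0.0687 without a trend in the prior variance). In KO its difference was 0.54 ± 0.18 (adjusted p = 0.0781, and 0.0272 with the 2 libraries of an animal paired). Il10rb, a chain of the interleukin-10 receptor, differed by 0.51 (adjusted p = 0.0585, and 0.0175 without the trend) and Il11ra1, which binds interleukin-11, by 0.34 (adjusted p = 0.208) in WT. Of the other JAK kinases, Jak3 differed by 0.63 (adjusted p = 0.209, and 0.0394 without the trend) and Tyk2 by 0.31 (adjusted p = 0.348).

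Among the other STAT genes, Stat2, a transcription factor of interferon signalling, rose by 0.40 ± 0.09 in WT (adjusted p = 0.0126) and differed by 0.31 in KO (adjusted p = 0.225). Stat5a differed by 0.75 ± 0.25 in WT (adjusted p = 0.0831, and 0.00931 without the trend), and its exons overlap those of Stat3 as given above.

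Among 15 listed inhibitors and phosphatases, Ptpn6, the phosphatase SHP-1 of blood and microglial cells, rose by 1.16 ± 0.30 in WT (adjusted p = 0.0275) and differed by 0.52 ± 0.25 in KO (adjusted p = 0.208). Socs5, a relative of Socs3, fell by 0.24 in WT (adjusted p = 0.0470, and 0.132 without that trend) and differed by -0.12 in KO (adjusted p = 0.456). Pias1, a SUMO ligase that inhibits STAT proteins, differed by -0.22 in WT (adjusted p = 0.0876, and 0.0251 with the libraries of an animal paired) and fell by 0.23 in KO (adjusted p = 0.0272, and 0.0676 without the trend). Of the SOCS genes listed in these tables, Socs3 had the largest difference. The interaction called 0 of the 28 further pathway genes in both tables.

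The STAT3 target list held 31 textbook target genes. In WT 21 of them were listed, of which 12 rose and 1 fell. In KO 20 were listed, of which 12 rose and 0 fell. The risers in WT include Ccl2, whose recovered CL WT values lay below the 3-read level. Its listing may rest on its PI values, since the filter is not given. With genes under 1 CPM left out, Ccl2 among them, 12 targets were called in WT instead of 13, both directions counted. Over all genes 5.2% were called higher and 5.4% lower in WT, and 5.11% and 4.94% in KO. The list's median difference was 0.64 in WT and 0.68 in KO, beside 0.01 and -0.00068 over all genes. Between genotypes no target was called. An unadjusted p under 0.05 was reached by 5 of 22 targets in PI (5.75% of all genes), 4 of 17 in CL (5.73%) and 2 of 20 in the interaction (4.55%). These genes are named here after their values were seen. In PI the KO minus WT differences were 0.52 for Timp1, 0.35 for Junb, 0.63 for Fos, 0.74 for Ccl2 and -0.17 for Bcl2l1. In CL they were 0.53 for Junb, 0.77 for Fos, 0.28 for Ccnd1 and -0.40 for Cebpd, and the interaction values were 0.76 for A2m and 0.57 for Cebpd. Their lowest adjusted p was 0.490, for Fos in CL. Genes of this list were known from earlier results of these data to have risen, and the count is no independent evidence.

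Lcn2, the iron-binding secreted protein lipocalin 2, had 3.64, 3.74 and 3.89 log2 CPM in PI WT and 0.01, 0.43 and 0.60 in CL WT. It rose by 3.38 ± 0.20 in WT and by 3.52 ± 0.20 in KO (adjusted p = 1.87e-06 and 1.46e-06). Gfap, the intermediate filament of reactive astrocytes, had 7.79, 8.01 and 8.15 log2 CPM in PI WT and 5.91, 6.16 and 6.21 in CL WT. It rose by 1.88 ± 0.11 in WT and by 2.19 ± 0.16 in KO (adjusted p = 1.87e-06 and 8.47e-06). Serpina3n, a protease inhibitor of reactive astrocytes, had 6.14, 6.24 and 6.43 log2 CPM in PI WT and 3.16, 3.82 and 4.08 in CL WT, and rose by 2.54 and 2.72. In all 3 genes the recovered PI WT values lay above the recovered CL WT values.

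A2m, the protease inhibitor alpha-2-macroglobulin, rose by 2.84 ± 0.18 in WT and 3.60 ± 0.23 in KO. Timp1, an inhibitor of matrix metalloproteinases, rose by 2.71 and 2.59, from CL WT values of which the second lowest lies within the range of the 3-read level. The transcription factor gene Cebpd rose by 1.28 and 1.86, the interleukin-4 receptor gene Il4ra by 1.19 and 1.49, the cyclin gene Ccnd1 by 0.64 and 0.61, and the survival gene Mcl1 by 0.53 and 0.45. The chemokine gene Ccl2 was called higher in WT, at 1.64, 1.95 and 2.15 log2 CPM in PI WT, and was not in the KO table. Its recovered CL WT values (-2.79 to -1.98 log2 CPM) were below the 3-read level. The size of its difference, drawn below at 4.31, is therefore uncertain, and with a pseudocount of 0.5 CPM it was 2.63. Icam1, an adhesion molecule named here after its values were seen because its promoter is shown above, rose by 1.83 ± 0.42 in WT (adjusted p = 0.0148) and 1.44 ± 0.42 in KO (adjusted p = 0.0457, and 0.0787 without the trend). Its recovered CL WT values, -1.17 to -0.23 log2 CPM, are near the 3-read level, and with a pseudocount of 0.5 CPM the differences were 1.22 and 1.07.

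**Figure D4:**
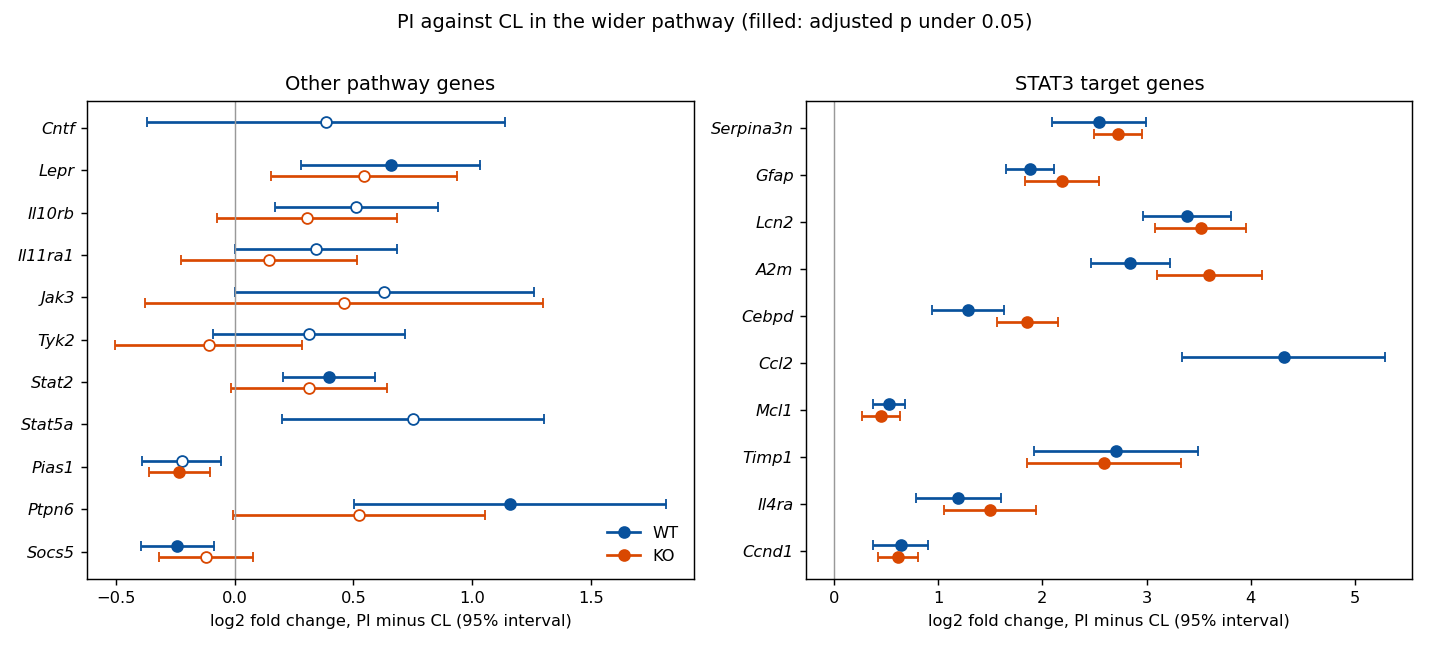
Log2 fold change of PI against CL (x axis, with 95% interval) in WT and KO for the named genes of the wider pathway (left) and of the STAT3 target list (right). Filled points have an adjusted p under 0.05; the named targets lie to the right of 0, the CL level of Ccl2 is below the 3-read level, and Cntf, Stat5a and Ccl2 have no KO value because the KO table does not list them.

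The genes whose levels followed each riser most closely over libraries were found from the lower of its 2 Pearson correlations, over the 12 libraries of the WT table and the 12 of the KO table, among 14203 genes. The libraries are shared by all genes and fall into PI and CL groups that differ, so these values mainly describe that difference. The correlations use the values as deposited, whose drawn-in extremes reduce the scatter within groups and can raise them. For Stat3 they were Lcn2 (0.986), the endocytic adaptor Dab2 (0.986) and Gfap (0.986). For Socs3 they were the interferon-induced gene Ifit1 (0.981), the amino acid transporter Slc1a4 (0.980) and Lcn2 (0.980). For Osmr they were Plek, a phosphoprotein of platelets and leukocytes (0.989), the complement receptor C3ar1 (0.988) and A2m (0.987), and for Il6st they were Aspg (0.969), Slc1a4 (0.960) and Pgd, an enzyme of the pentose phosphate pathway (0.957). Of these genes Dab2 rose by 1.52 and 1.56 in WT and KO, Ifit1 by 1.67 and 2.08, Slc1a4 by 0.74 and 0.77, Plek by 1.34 and 1.67, C3ar1 by 1.93 and 1.48, and Aspg by 2.10 and 1.86. Pgd rose by 0.45 in WT and differed by 0.28 in KO (adjusted p = 0.0717).

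Markers of several cell types moved between PI and CL along with these genes. The sums below use the values as deposited, whose extremes were drawn in, so their ranges over the libraries may be too narrow. Over all genes 5.2% were called higher and 5.4% lower in WT, and 5.11% and 4.94% in KO. The summed level of 8 astrocyte markers was 6381 to 6784 CPM in PI WT and 7353 to 7748 CPM in CL WT, with 1 marker higher, 3 lower and 4 not called. The 8 microglial markers summed to 171 to 194 CPM in PI WT and 163 to 178 CPM in CL WT, with 2 higher and 1 lower. Of 8 monocyte and macrophage markers 4 were listed, summing to 21.6 to 28.1 CPM in PI WT and 14.2 to 16.2 CPM in CL WT, and 3 of these rose, while Ccr2, Ly6c2, Ms4a7 and Plac8 were not listed. None of 8 neutrophil and none of 8 lymphocyte markers was listed in the PI and CL tables. The 10 neuronal markers summed to 7573 to 8346 CPM in PI WT and 8729 to 9371 CPM in CL WT, with 4 lower. Of 7 markers of striatum, which lies under the cortex, 4 were listed, and Drd2, Adora2a and Gpr6 were not. These 4 summed to 83.0 to 109 CPM in PI WT and 65.6 to 83.3 CPM in CL WT. Of them 1 was higher and 3 were not called, with a median log2 difference of 0.04. The 8 oligodendrocyte markers summed to 1558 to 2191 CPM in PI WT and 2236 to 2441 CPM in CL WT, with 2 lower, and to 1714 to 1951 CPM in PI KO and 1781 to 2418 CPM in CL KO, with none called. In knockout animals the sums were 7400 to 8160 against 8687 to 9028 CPM for neurons, with 3 of 10 markers lower and 1 higher. For striatum the knockout sums were 76.3 to 106 against 62.0 to 78.1 CPM, with none of the 4 markers called and a median log2 difference of 0.20. The knockout sums were 6187 to 6884 against 7382 to 7885 CPM for astrocytes (1 higher, 1 lower) and 185 to 224 against 175 to 189 CPM for microglia (2 higher, 1 lower). For monocytes and macrophages they were 23.1 to 29.7 against 14.9 to 17.2 CPM (3 higher). Of 8 endothelial markers none was called in WT and 1 was lower in KO. Of 8 pericyte and fibroblast markers 1 was higher in each genotype. Of 5 listed oligodendrocyte precursor markers 1 was lower in WT and none was called in KO. The part of these cell types in the rise of Osmr, Il6st, Stat3 and Socs3 was not tested.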

How the data were processed

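Each column of the 4 deposited tables (12 libraries each, 1 table per pair of groups) holds log2 CPM per gene, the scaling made by the authors, and matched the title of 1 sample (0 columns left over). The build is mm10, per the submitters' processing notes, and the aligner, counter, annotation, gene filter and use of strand are not given in the sources used here. The tables were scaled separately (median shift of a library 0.0253 to 0.0371 on the log2 scale), so every test stayed within a table.

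The deposited values had been Winsorized, a step no label records: each group's 2 lowest values equal 0.75 times the second lowest plus 0.25 times the third, with the mirrored rule for the highest. Solving these equations gave the 4 inner values. Low recovered values were whole reads, within 0.03 read, in 82.4% to 87.9% of cases per group and table, against 10.6% to 13.4% as deposited. For each gene the means of the 4 recovered values were compared, with the Winsorized sum of squares as error and 6 degrees of freedom (12 for the interaction). Variances were moderated by the empirical Bayes step of limma (version 3.58.1 in R 4.3.3) with a trend on level. P-values, two-sided, were adjusted by the Benjamini-Hochberg method over the table's genes, or over the 14211 genes in both tables for the interaction. The procedure was tested on simulated data.

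The labels name 1 animal for the CL and the PI library of a number, so those libraries are paired. The main test did not use this pairing, and its standard errors and intervals for PI against CL are unpaired. The deviations of paired libraries from the group means correlated at a median of 0.101 (-0.0275 to 0.242) in WT and 0.106 (-0.00382 to 0.221) in KO. KO and WT libraries of a number come from different animals, and no label pairs them. Depth (3.73 M to 10.5 M reads) was estimated from the steps between low values and limits precision at low levels. The 8 genes and all lists were chosen with earlier results of these data known. Named were the 8 genes; of each list up to 10 called genes by smallest p, or the 3 smallest p where fewer than 3 were called; and the 3 genes most like each of Stat3, Socs3, Il6st and Osmr. Exon lengths and positions come from GENCODE M21 (GRCm38) and promoters from RefSeq. The values of 1 gene of the pathway list are not reported here, though it is included in the counts.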

Additional observations from a re-analysis of the deposited data

How the results depend on the processing

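The calls of the 8 genes were computed with 7 other settings. The 4 calls in WT and the 4 in KO did not change with a robust prior, the median gene set to 0, genes under 1 CPM left out, a pseudocount of 0.5 CPM or the replicate block that pairs the 2 libraries of an animal (4 and 4 genes called with the block). With the block, all genes called numbered 2275 in WT and 2154 in KO, beside 1537 and 1440 without it. Without a trend in the prior variance Il6st in KO was not called, the further pathway genes called were 1 instead of 2 in KO and 6 instead of 5 in WT (with Il10rb, Jak3 and Stat5a, without Lepr and Socs5), and all genes called fell to 1015 in WT and 739 in KO.

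limma on the deposited values, whose spread is too small because the extremes were drawn in, called more genes throughout. All genes called became 6459 and 6666 for PI against CL in WT and KO, 2388 and 2311 for KO against WT in PI and CL (3 and 4 in the test used), and 1940 for the interaction (0). Further pathway genes called became 18 in WT (5) and 13 in KO (2), and 4 in PI and 5 in CL between genotypes (0 and 0). STAT3 targets called between genotypes became 7 in PI and 7 in CL (0 and 0), and of the 8 genes 1 in PI and 1 in CL (0 and 0). For PI against CL it called 6 of the 8 genes in WT (4) and 5 in KO (4), adding Jak1 in both (adjusted p = 0.00985 and 0.000413) and Lifr in WT (0.0234).

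Between genotypes a number names different animals. Same-numbered libraries correlated at a median of 0.00524 in PI and 0.0303 in CL, and 1 of 6 libraries correlated best with its own number in each. A block on these numbers called 6 genes in PI and 85 in CL, 2 of the 85 being STAT3 targets (Junb and Fos, named after their values were seen). In the interaction the block instead pairs the PI and CL libraries of an animal within each genotype, and there it called 1 gene. Among the 8 genes, the only value to change sign was the uncalled interaction of Socs3, at 0.02 with the pseudocount of 0.5 CPM and -0.08 in the test used. Leaving out single libraries was not run, because the drawn-in values depend on all 6 libraries of a group. Depth limits values near the 3-read level of 0.286 to 0.803 CPM, such as those of Ccl2, Timp1 and Icam1 in CL.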
